A study of Mus musculus with 2 samples.

Results

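The cytosolic ribosomal protein genes encode the proteins of the 40S and 60S subunits of the ribosome. They were taken as the protein-coding genes of the GENCODE annotation whose symbol is Rpl or Rps followed by a number, with an optional a, x, y or l, together with Rplp0, Rplp1, Rplp2 and Rpsa. The rule found 80 genes, 31 of the 40S and 49 of the 60S subunit, among 43346 genes listed and 21474 protein-coding genes. Mitochondrial ribosomal proteins and pseudogenes are not among them, and members of the family with other symbols are given apart.

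Total RNA was sequenced from CH12.LX, an established mouse B cell lymphoma line from the strain B10.H-2aH-4bp/Wts, labelled female. The 2 libraries are biological replicates 1 and 2 of 1 untreated, unmodified group as far as the labels say, so no condition was compared with another. Library totals were 49278383 and 55950529 expected counts, which are reads shared out among genes by estimation and so need not be whole. Levels are in TPM, a count per effective transcript length scaled to the same sum in each library. All 7 B cell markers examined were detected, at summed levels of 225 and 225 TPM, while 2 of 12 markers of other cells were (Epcam and Cd3d, with the whole list summing to 4.80 and 4.05 TPM and Cd3e and Ncr1 at 0). The labels do not say whether the replicates were separate cultures, and 1 line gives no measure of variation between lines or animals.

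Each ribosome carries a single copy of nearly every ribosomal protein, so cells make these proteins in near-equal numbers; the acidic stalk proteins are the main exception. The mRNAs of most vertebrate ribosomal proteins begin with a cytidine followed by a run of pyrimidines, the terminal oligopyrimidine or TOP tract. Through that tract, mTOR and the RNA-binding protein LARP1 control how much of the mRNA is translated. B cells raise ribosome production when they are activated, and lymphoma lines grow with high rates of translation.

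The start regions are shown first because the TOP tract is the letter pattern that members of this family are best known to share. RefSeq start windows on GRCm38.p6 were at hand for 60 of the 80 genes. Each line gives 30 bases, 5′ to 3′ on the strand of the gene. The annotated start is base 16. A tract is a C followed by at least 4 further C or T letters, and the one nearest the start, beginning within 10 bases of it, is in capitals. Other such runs stay in lower case, also where they lead directly into the capitals, as in Rpl14 and Rpl35. The first 10 genes have such a tract exactly at the annotated start.
Rps6, chr4:86857353-86857382, minus strand: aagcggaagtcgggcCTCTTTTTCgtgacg
Rps10, chr17:27635230-27635259, minus strand: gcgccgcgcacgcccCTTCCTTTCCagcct
Rps18, chr17:33955651-33955680, minus strand: tacgtcacttccgctCTCTCTTCCacagga
Rps27, chr3:90213634-90213663, minus strand: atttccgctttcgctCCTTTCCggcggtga
Rpl14, chr9:120571502-120571531, plus strand: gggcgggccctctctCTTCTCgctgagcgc
Rpl15, chr14:18270972-18271001, minus strand: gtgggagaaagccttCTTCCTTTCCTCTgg
Rpl28, chr7:4792950-4792979, plus strand: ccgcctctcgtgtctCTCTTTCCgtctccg
Rpl35, chr2:39005117-39005146, minus strand: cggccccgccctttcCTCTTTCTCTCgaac
Rpl38, chr11:114668565-114668594, plus strand: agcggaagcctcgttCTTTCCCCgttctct
Rplp2, chr7:141447636-141447665, plus strand: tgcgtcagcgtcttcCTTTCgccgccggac
The next genes are from the low end of the family. They are Rpl5, the lowest long 60S mRNA, and the paralogs Rps27l, Rpl39l, Rpl10l and Rpl3l. Of these windows only that of Rpl5 has no such tract within 10 bases of the start. The windows of Rplp0, Rpl41 and Rpl26, which are among the highest members, have none either, so the tract does not set the low members apart.
Rpl5, chr5:107900513-107900542, plus strand: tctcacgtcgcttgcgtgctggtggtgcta
Rps27l, chr9:66946071-66946100, plus strand: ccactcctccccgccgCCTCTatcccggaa
Rpl39l, chr16:10170213-10170242, plus strand: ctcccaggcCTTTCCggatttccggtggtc
Rpl10l, chr12:66284387-66284416, minus strand: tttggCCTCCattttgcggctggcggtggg
Rpl3l, chr17:24727811-24727840, plus strand: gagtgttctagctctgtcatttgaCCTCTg

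A tract lay exactly at an annotated start in 13 of the 60 genes, or 21.7%. The same letters stood there in 3.01% of all 27025 genes of the table and in 2.78% of 7077 other nuclear protein-coding genes detected in CH12.LX. Within 10 bases on either side of a start, 38 of the 60 genes (63.3%) had a tract, against 34.4% of all genes and 36.6% of the other detected genes. Annotated starts are approximate: for Rps6 the RefSeq start and the first base of the leading GENCODE transcript (the protein-coding transcript with the highest mean TPM) lay 45 bases apart, for Rpl35 493 bases and for Rps18 2 bases. Counted at the first base of the leading GENCODE transcript, 10 of 78 detected members (12.8%) had a tract, against 2.13% of 8790 other detected genes, and 33.3% against 17.2% began with C. The 10 members with such a transcript had median levels of 609 and 646 TPM in replicates 1 and 2, and the other 67 members at 100 TPM or more had medians of 719 and 715 TPM. The groups overlap, with mean levels of 375 to 1252 TPM and of 156 to 3159 TPM. Rpl32, with a tract of 14 letters, is an example at 1252 ± 9.41 TPM (mean ± SD, n = 2). Noncoding transcripts were not considered, although in Rpl30 and Rps20 one of them held more TPM.

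Other letters were searched on both strands of the 300 bases around each start, 250 before and 50 after. A gene was counted once if any of its starts had at least 1 match. CCGGAAGT, the site of ETS factors such as GABPA, was present for 20% of the 60 genes, against 4.31% of all genes and 11.4% of other detected genes. AAGATGGC, the YY1 letters, were present for 8.33%, against 3.19% and 6.37%. GGGCGG, the SP1 letters, were found for 60%, between the 38.2% of all genes and the 71.1% of other detected genes. TATAAA was found for 10%, against 15.7% and 7.40%. A match describes the letters only.

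Nearly the whole family was expressed at a high level. Of the 80 genes, 78 were detected, meaning 1 TPM or more in both libraries, and 77 reached 100 TPM in both. At higher levels, 75 reached 200 TPM, 59 reached 500 TPM and 18 reached 1000 TPM. The median over detected members was 681 TPM in replicate 1 and 715 TPM in replicate 2, against 6.61 and 6.53 TPM for 8804 other detected nuclear protein-coding genes. The family supplied 12 of the 20, 30 of the 50, 65 of the 100 and 76 of the 200 highest nuclear protein-coding genes by mean TPM.

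Together the members held 25.1% and 25.9% of the TPM of protein-coding genes, a mean of 25.5% ± 0.571 (SD, n = 2). Of the TPM of all genes they held 6.13% and 6.29%, since protein-coding genes as a whole held 24.4% and 24.3%. Counted as reads rather than per length, the members held 10.4% and 10.6% of the protein-coding expected counts. The median length of the leading transcript was 681 bases for members and 2578 bases for other detected genes, and the family's share of TPM exceeded its share of reads.

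The 40S and 60S members stood at similar levels. The medians of detected 40S members were 736 and 737 TPM and those of 60S members 639 and 650 TPM, with SDs of log2 TPM of 0.68 and 0.77 for the 31 genes of the 40S subunit and 0.68 and 0.75 for the 46 genes of the 60S subunit at 100 TPM or more. The mean levels of 40S members ran from 156 TPM (Rps27l) to 1436 TPM (Rps12). Those of detected 60S members ran from 1.58 TPM (Rpl39l) to 3159 TPM (Rplp1), and the 3 highest members and the lowest detected one are all of the 60S subunit.

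**Figure D1:**
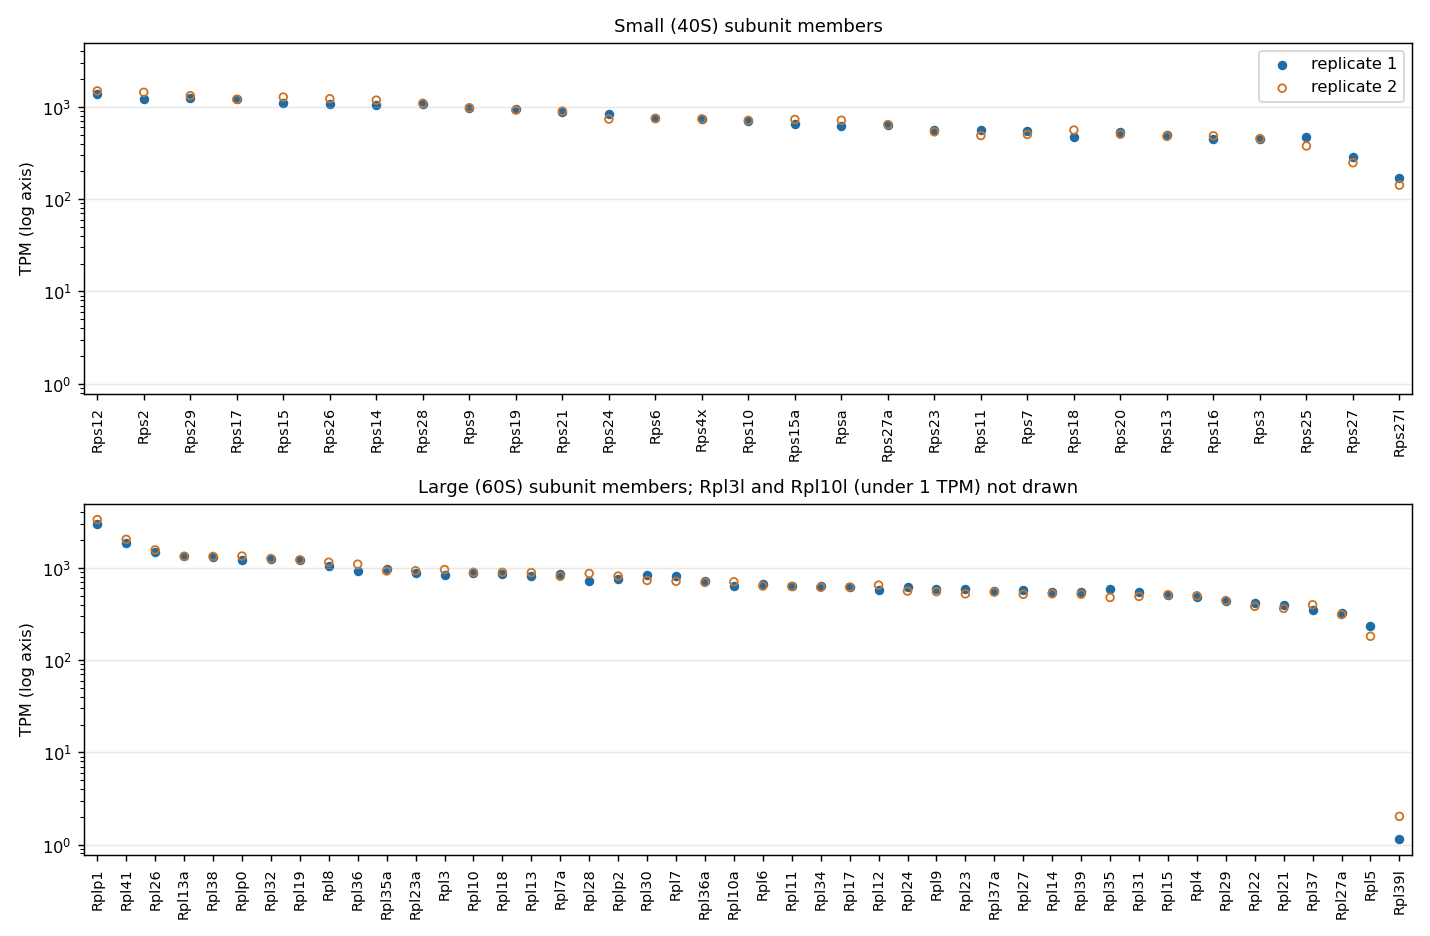
TPM of 75 of the 78 detected members (log axis) in replicate 1 (filled) and replicate 2 (open), with 40S members in the upper and 60S members in the lower panel, ordered by mean TPM. All members drawn except Rpl39l lie above 100 TPM in both libraries, and Rplp1 is highest at 2984 and 3333 TPM.

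The highest member was Rplp1, an acidic protein of the P stalk, which recruits elongation factors to the ribosome. Its levels were 2984 and 3333 TPM in replicates 1 and 2 (chromosome 9, 61913284 to 61914542, minus strand, GRCm38). Rpl41, which encodes one of the shortest proteins known in eukaryotes, followed at 1849 and 2036 TPM. Both were above every other member in both libraries.

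Rpl26, a 60S protein that also binds the p53 mRNA, was at 1480 and 1566 TPM. Rps12, a protein of the 40S head, was at 1382 and 1491 TPM. Rpl13a, known also for silencing inflammatory mRNAs when it leaves the ribosome, was at 1340 and 1332 TPM. These levels lie close together: Rpl13a, Rps2 (1227 and 1440 TPM), Rpl38 (1323 and 1329 TPM), Rps29 (1242 and 1323 TPM), Rplp0 (1216 and 1341 TPM) and Rpl32 (1245 and 1259 TPM) do not keep 1 order across the libraries. Neighbours in this run differ in mean by less than the difference between replicates of at least 1 of them.

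At the low end, Rpl39l stood apart from the 77 high members at 1.14 and 2.02 TPM. Above it came Rps27l, a p53-inducible copy of Rps27, at 171 and 142 TPM. Rpl5 was at 235 and 181 TPM, Rps27 at 288 and 248 TPM and Rpl27a at 324 and 311 TPM. Rps27l was below Rpl5, and Rpl5 below Rps27, in both libraries. Rpl37 (352 and 398 TPM), Rpl21 (395 and 363 TPM) and Rpl22 (415 and 382 TPM) are also among the lowest 10, in an order that changes between libraries.

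Rpl3l and Rpl10l were the members not detected. Rpl3l, the form of Rpl3 known from heart and skeletal muscle, had 5 expected counts (0.05 TPM) in replicate 1 and 0 in replicate 2, where 0 counts allow up to 0.0297 TPM by a limit of 3 counts. Rpl10l, an intronless copy of Rpl10 known from the testis, had 1 count in replicate 1 (0.01 TPM) and 0 in replicate 2, where the limit is 0.0290 TPM. These limits cover counting error only.

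Over the 77 members at 100 TPM or more, the 90th percentile of TPM was 2.89 times the 10th in replicate 1 and 3.13 times in replicate 2, and the SD of log2 TPM was 0.68 and 0.75. The mitochondrial ribosomal protein genes, a family of the same kind for the ribosome of mitochondria, were all detected (77 of 77) at medians of 26.2 and 23.4 TPM. Their percentile ratios were 6.14 and 5.35 and their SDs of log2 TPM 0.92 and 0.94. With all 78 detected members, Rpl39l included, the percentile ratios of the cytosolic family were 3.04 and 3.37, still below those of the mitochondrial one, but its SDs of log2 TPM were 1.25 and 1.22, above them. Which family has the larger SD thus turns on Rpl39l. Both families were measured in the same libraries and no test was made of the difference.

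Short transcripts make the order of the members depend on the length scale. TPM divides by an effective length, which for short mRNAs is far below the full length: Rps27 has 255 annotated bases and effective lengths of 96.2 and 89.3 bases. The coding sequence of Rps27 also has 255 bases, so its level on either scale rests on coding bases alone. Of the 77 high members, 14 have a mean transcript length under 500 bases. Across these members the Spearman correlation of length with mean TPM was -0.36, and with expected counts per kb of full length -0.15, a description over genes of the same libraries. Per full length the spread was much the same, with an SD of log2 level of 0.67 and 0.75.

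Individual members moved by up to 14 places between the scales. Rpl36 was 19th by TPM and 33rd per full length, Rps21 26th and 39th, Rpl38 7th and 18th, and Rpl34 46th and 57th, all of them short mRNAs. Rpl4, with a mean length of 1422 bases, moved the other way, from 64th to 53rd. Rplp1 and Rpl41 were first and second, and Rps27l, Rpl5 and Rps27 were the last of the 77, on both scales. The low level of Rps27 per full length, 216 library-scaled counts per kb, was below the 234 of Rps27l, so the order of that pair depends on the scale.

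**Figure D2:**
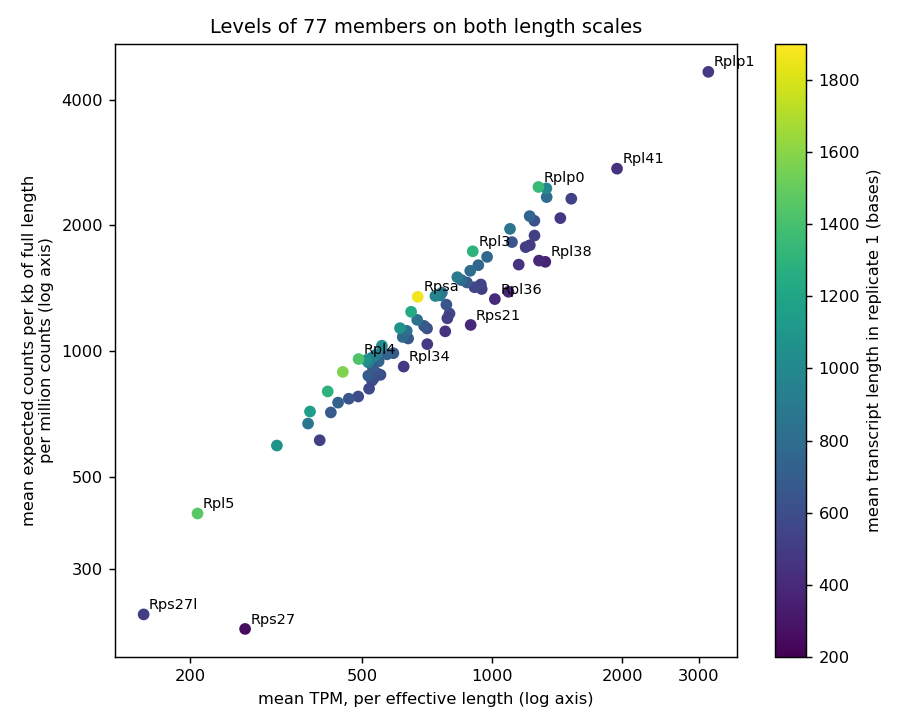
Mean level of each of the 77 members at 100 TPM or more, as TPM (x axis, per effective length) and in expected counts per kb of full length scaled to library size (y axis), both on log axes, coloured by mean transcript length in bases. Rplp1 and Rpl41 are highest and Rps27l, Rpl5 and Rps27 lowest on both scales, while the short Rpl36, Rps21 and Rpl38 lie below the main band.

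By role in the ribosome, the P stalk proteins were unequal. A ribosome carries 1 Rplp0 with several copies of Rplp1 and Rplp2, which form dimers. Rplp0 was at 1278 ± 88.6, Rplp1 at 3159 ± 247 and Rplp2 at 787 ± 37.8 TPM (mean ± SD, n = 2). Rplp1 mRNA was thus above Rplp2 mRNA in both libraries, by far more than the difference between replicates.

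Rpl5 and Rpl11 join the 5S rRNA in a particle that enters the 60S subunit early, and that outside the ribosome binds and inhibits MDM2. Their mRNAs differed: Rpl11 was at 639 and 629 TPM, and Rpl5 at 235 and 181 TPM. In mean library-scaled counts per kb of full length Rpl11 was at 1117 and Rpl5 at 408. Rpl5 was the lower on either scale.

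Proteins that line or surround the tunnel through which the nascent chain leaves ranged from 491 to 1220 TPM. Rpl19 was highest at 1220 and 1220 TPM, followed by Rpl23a, which docks the signal recognition particle, at 889 and 930 TPM. Rpl17 was at 623 and 618 TPM, Rpl39 at 546 and 518 TPM and Rpl31 at 544 and 490 TPM. Rpl35 was at 583 and 477 TPM, and Rpl4, whose loop narrows the tunnel, at 484 and 498 TPM. The ranges of Rpl4, Rpl31 and Rpl35 overlap, as do those of Rpl31, Rpl35 and Rpl39, while Rpl39 was above Rpl4 in both libraries by TPM. In library-scaled counts per kb of full length that order was reversed, with Rpl4 at 963 and 949 and Rpl39 at 905 and 814.

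In the 40S subunit, Rps2 and Rps3 form the mRNA entry channel with Rps23 near the decoding centre. Rps2 was at 1227 and 1440 TPM, above Rps23 at 555 and 537 TPM and Rps3 at 449 and 453 TPM in both libraries. Among proteins tied to initiation and the 40S head, Rps6, the substrate of S6 kinase, was at 764 and 750 TPM. Rpsa, also known as the laminin receptor precursor, was at 628 and 716 TPM. Rps25, needed for some cap-independent initiation, was below both at 469 and 377 TPM.

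The 4 members on the X chromosome were all at high levels. Rpl10, which completes the 60S subunit late in its assembly, was at 884 and 895 TPM, Rps4x at 736 and 741 TPM, Rpl36a at 719 and 696 TPM and Rpl39 at 546 and 518 TPM. They held this order in both libraries. The remaining members are spread over the genome: the family occupies 19 chromosomes, with 14 members on chromosome 7, 7 each on chromosomes 9, 11 and 17, and 1 each on chromosomes 6 and 13.

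Several members have a paralog elsewhere in the genome, and the paralog's share of the pair's TPM ran from 0 to 37.2%. Rps27l held 37.2% and 36.3% of the Rps27 and Rps27l total in TPM, which leaves out Rps27rt, a further family gene given below. In expected counts the order of this pair was reversed, with 6507 and 5760 for Rps27l and 3061 and 2676 for Rps27. Rpl36al, a copy of Rpl36a, held 36.4% and 35.1%, at 411 and 377 TPM. Rpl22l1, the partner of Rpl22, was at 138 and 122 TPM and held 25.0% and 24.1%. These shares differed by under 2 percentage points between libraries.

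The other pairs were lopsided. Rpl7l1 was at 44.6 and 31.9 TPM and held 5.20% and 4.27% of its pair. Rpl39l, known as a testis form of Rpl39, held 0.208% and 0.389%. Rpl3l held 0.00592% in replicate 1 and was at 0 in replicate 2, and Rpl10l held 0.00113% and 0. The pairs with a silent or near-silent copy are thus those whose copy is known from muscle or testis.

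Reads can be told apart within these pairs only where the sequences differ. Aligned coding sequences of the annotation were identical at 87.9% of 321 bases for Rpl36a and Rpl36al, 85.3% of 156 for Rpl39 and Rpl39l and 84.8% of 645 for Rpl10 and Rpl10l. Identity was 76.1% of 255 bases for Rps27 and Rps27l, 74.2% of 1209 for Rpl3 and Rpl3l, 69.7% of 366 for Rpl22 and Rpl22l1 and 56.0% of 734 for Rpl7 and Rpl7l1. The pair shares are estimates of the authors' read assignment.

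**Figure D3:**
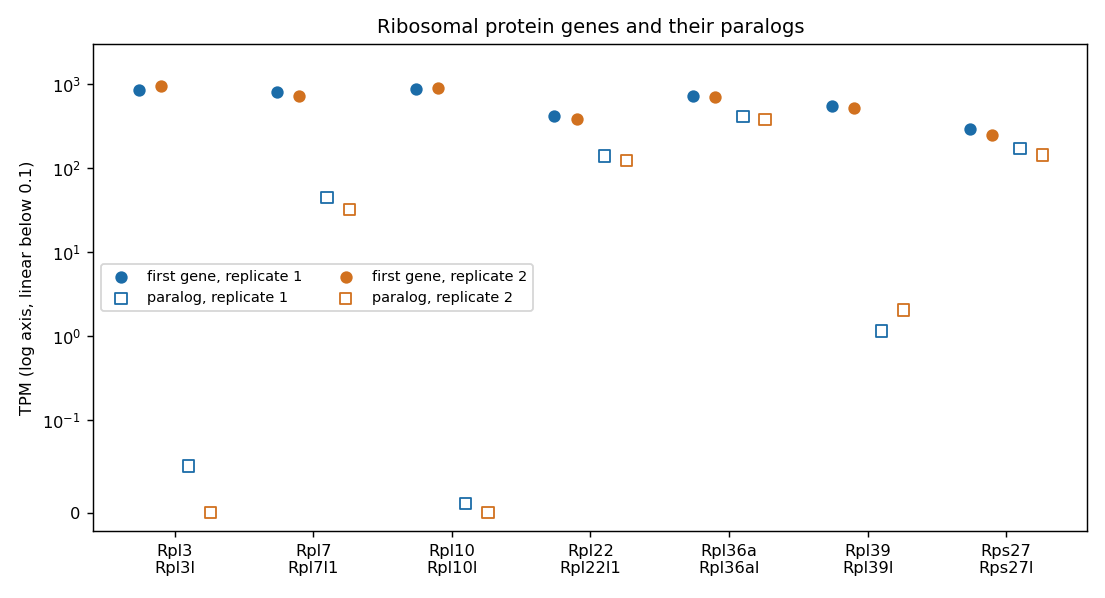
TPM of 7 ribosomal protein genes (filled circles) and their paralogs (open squares) in replicate 1 (blue) and replicate 2 (orange), on a log axis that is linear below 0.1. Rps27l, Rpl36al and Rpl22l1 lie above 100 TPM in both libraries, and Rpl3l and Rpl10l lie at or near 0.

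Of 7 family genes with other symbols, all were detected, at medians of 411 and 377 TPM against 681 and 715 TPM for detected members. Rpl36al, Rpl22l1 and Rpl7l1, given above as paralogs, are among them. Rack1, the scaffold protein of the 40S head, was at 1315 and 1472 TPM. Fau, the precursor of Rps30, was at 573 and 603 TPM. Rps27a, the member made as a ubiquitin fusion, was at 635 and 643 TPM. Rps27rt, named for Rps27, was at 123 and 116 TPM. Its 2861 and 2866 expected counts stood beside 3061 and 2676 for Rps27. Like Rpl22l1 and Rpl7l1, Rps27rt was below all 77 high members in mean TPM. Rps3a1, a 40S protein outside the symbol pattern that was added once its level was known, had 858 and 819 TPM.

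The 2 libraries were then compared with each other, as the log2 ratio of TMM-scaled counts of replicate 2 over replicate 1. TMM is a scaling that centres the bulk of genes. With 1 library on each side no test is possible, so a gene was called by size alone, at a ratio of 1.5 or more. Of 78 members with at least 10 counts summed, 1 was called, against 19.4% of all 15438 genes tested (12.7% higher and 6.72% lower in replicate 2) and 8.71% of 241 other nuclear protein-coding genes at 100 TPM or more.

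That member was Rpl39l, with 53 and 105 expected counts, a log2 ratio of 0.89 and a 95% interval of 0.40 to 1.39. All intervals of ratios are exact conditional binomial ones that cover counting error only. No member reached a ratio of 2, against 8.46% of all genes tested (5.82% higher and 2.64% lower). No replicate check of this difference exists.

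The 77 high members kept close to 1 ratio. Their log2 ratios ran from -0.39 to 0.25 with an SD of 0.14, while the 241 other genes at such levels had an SD of 0.34. Only 4 of the 77 passed a ratio of 1.2, against 34% of the 241, and 27 passed 1.1, against 58.1%. The mitochondrial ribosomal proteins had an SD of 0.20 around a median of -0.16. The counting interval nevertheless left out a ratio of 1 for 63 of the 77, because members other than Rps27 and Rps27l have at least 16234 counts in each library.

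The median log2 ratio was 0.02, against 0.01 for all genes tested and -0.08 for the 241 others, and 44 members were higher and 33 lower in replicate 2, but with library totals alone the median was -0.07, with 22 higher and 55 lower. By any amount, 51% of all genes tested and 36.5% of the 241 were higher with TMM, and 42.1% and 25.7% with library totals. That scaling moves every log2 ratio by -0.08, so the members' place against the 241, whose median became -0.16, does not depend on it. The median was 0.03 for 40S and 0.01 for 60S members.

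**Figure D4:**
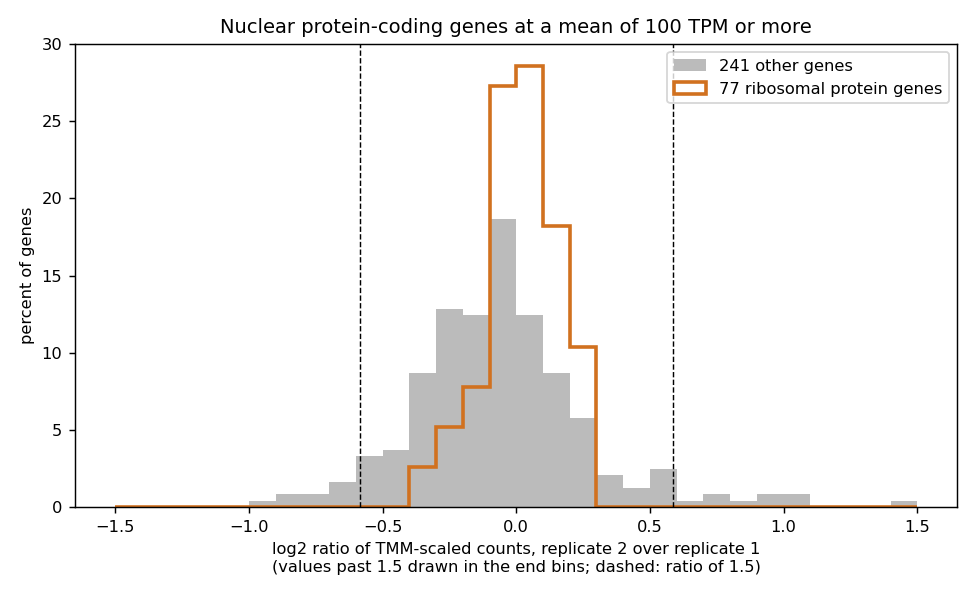
Distribution of the log2 ratio of TMM-scaled counts, replicate 2 over replicate 1, in percent of genes per bin, for 77 ribosomal protein genes (line) and 241 other nuclear protein-coding genes averaging 100 TPM or above (grey). Dashed lines mark a ratio of 1.5. The ribosomal protein genes lie between -0.39 and 0.25, inside the spread of the others.

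Rpl5 had the lowest ratio of the high members, a log2 ratio of -0.39 with a counting interval of -0.42 to -0.37. Rps25 followed at -0.30, Rps27 at -0.29, Rps27l at -0.27 and Rps24 at -0.22. Rps27 and its paralog lay at nearly the same ratio. At the other end, Rps2 was at 0.25, Rps18 at 0.23, Rpl36 at 0.22 and Rps14 and Rpsa at 0.21. These 10 members lie between -0.41 and 0.28, the 10th and 90th percentiles of the 241 other abundant genes.

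For a few members the TPM ratio and the count ratio parted. Rpl35 had a log2 count ratio of 0.03 but a log2 TPM ratio of -0.29, as its effective length was 524 bases in replicate 1 and 639 in replicate 2. Rpl7 had 0.03 and -0.19, with effective lengths of 689 and 786 bases. In both genes the estimated mix of transcripts differed between the libraries, as described next.

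At the transcript level, 174 of the 360 listed transcripts of members are typed protein-coding, and they held 93.4% ± 0.598 of the members' TPM (SD, n = 2), against 89.0% ± 0.380 in other detected genes. Retained-intron transcripts held 3.05% against 5.16%, processed transcripts 1.74% against 3.15% and transcripts typed for nonsense-mediated decay (NMD) 0.655% against 2.08%. Of the 78 detected members, 53 had 1 transcript at 10% or more in both libraries and 25 had several.

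The noncoding types were concentrated in 10 members, where they held at least 10% of TPM in both libraries. They held 88.8% ± 0.875 in Rps20, 58.2% ± 1.26 in Rpl30 and 43.3% ± 1.27 in Rpl5. The values were 37.2% in Rps19, 14.8% in Rpl27a and 11.9% in Rpl23. Rpl35 (50.8% and 27.4%), Rpl12 (33.1% and 42.3%) and Rpl7 (24.4% and 10.1%) differed most between libraries. These are shares of TPM, and in several of these genes the noncoding transcripts held less of the counts, as given below.

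**Figure D5:**
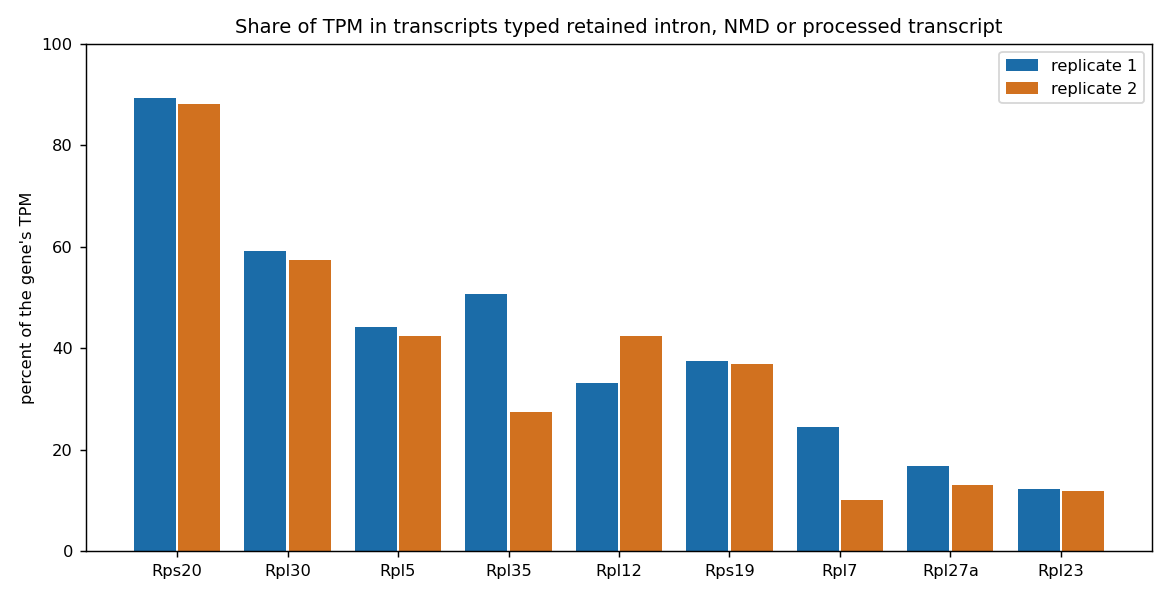
Percent of each gene's TPM assigned to transcripts typed retained intron, NMD or processed transcript, for 9 of the 10 members at 10% or more in both libraries, in replicate 1 (blue) and replicate 2 (orange). Rps20 is highest at 89.4% and 88.1%, and Rpl35 and Rpl7 show the largest gaps between libraries.

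In Rps20, the retained-intron transcript Rps20-201 (582 bases) held 81.7% and 81.6% of TPM, and the protein-coding Rps20-203 (3706 bases) 10.6% and 11.9%. Counted in reads they were nearly even, at 46.1% and 43.5% for Rps20-201 and 50.3% and 53.7% for Rps20-203. Which transcript leads thus depends on whether TPM or reads are counted. In Rpl30, the processed transcript Rpl30-205 held 58.8% and 57.2%, ahead of the coding Rpl30-201 at 27.1% and 24.2% and Rpl30-206 at 12.4% and 17.5%. In counts Rpl30-205 held 44.1% and 43.0%, Rpl30-201 36.4% and 33.1% and Rpl30-206 14.0% and 20.1%.

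In Rpl5, the coding Rpl5-201 held 50.8% and 48.0% and the retained-intron Rpl5-202 39.2% and 37.7%. In Rps19, whose loss underlies Diamond-Blackfan anaemia, the coding Rps19-210 held 41.0% and 39.98%, the NMD transcript Rps19-205 30.2% and 21.3% and the coding Rps19-203 10.3% and 15.2%. In counts Rps19-210 held 27.6% and 27.7%, and Rps19-205 34.2% and 25.0%. In Rpl12, Rpl12-203 led at 66.9% and 57.7%, with the NMD transcript Rpl12-201 at 15.4% and 20.3% and the retained-intron Rpl12-202 at 14.1% and 19.7%. In counts Rpl12-203 held 79.4% and 73.3%, Rpl12-201 9.64% and 13.5% and Rpl12-202 6.81% and 10.1%. NMD-typed transcripts of Rpl12 are known from its own regulated splicing.

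Of 118 transcripts at 10% or more in either library, 9 differed by at least 10 percentage points. Rpl35-201 had the largest gap, 49.3% and 72.6%, against Rpl35-203 at 27.4% and 15.3% and Rpl35-202 at 23.4% and 12.2%. In counts Rpl35-201 held 73.9% and 88.6%. Rpl7-201 was at 31.7% and 45.7%, Rpl7-205 at 43.9% and 44.2% and Rpl7-203 at 23.2% and 9.12%. In counts Rpl7-201 led in both libraries, at 46.2% and 58.0% against 43.2% and 37.8% for Rpl7-205. The rest were pairs of coding transcripts of Rpl11 and Rps10: Rpl11-201 at 95.2% and 83.4% with Rpl11-210 at 3.08% and 15.2%, and Rps10-203 at 87.9% and 77.8% with Rps10-208 at 9.90% and 20.96%.

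Coding transcripts shared a gene in most of the remaining members with several transcripts. The forms of Rps24, which differ in a small exon near the end of the reading frame, were close to even in TPM: Rps24-201 held 49.6% and 55.4% and Rps24-202 50.4% and 44.6%. In counts they were not, with 69.0% and 64.2% in the longer Rps24-202. Rps18-206 held 51.5% and 56.0% with Rps18-201 at 39.6% and 34.01%, and Rps3-201 62.6% and 64.7% with Rps3-202 at 33.5% and 31.4%. Rpl15 was split most finely, with Rpl15-203 at 43.8% and 45.4%, Rpl15-201 at 24.3% and 20.7%, Rpl15-202 at 19.1% and 19.0% and Rpl15-204 at 12.8% and 14.8%. Rpl31-202 held 52.4% and 43.5%, Rpl31-201 26.9% and 30.8% and Rpl31-205 16.4% and 23.1%. In counts Rpl15-202 led its gene at 37.96% and 38.1%, and Rpl31-201 at 46.2% and 49.7%. Rpl13a-201 held 48.5% and 45.8%, beside transcripts of the deposited table that the reference annotation does not hold.

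A second coding transcript was the minor one in other members. Rps27a-201 held 72.5% and 65.1% with Rps27a-202 at 25.0% and 33.4%, and Rpl29-203 held 69.3% and 70.9% with Rpl29-201 at 30.7% and 29.2%. Rpl21-202 held 70.1% and 73.5% of TPM but 52.4% and 56.1% of counts, Rpl38-204 72.7% and 72.8% and Rplp2-203 74.6% and 75.6% (53.2% and 53.4% of counts). Rps28-205 held 77.4% and 78.3%, Rps14-201 81.2% and 82.3%, Rpl35a-201 81.6% and 85.7% and Rpl28-201 82.4% and 77.1%. Rps15a-201 held 62.0% and 58.1%, with Rps15a-203 at 31.2% and 35.8% of TPM but 5.56% and 6.43% of counts. Most of these splits moved by a few percentage points between libraries.

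Ribosomal protein genes are compact, and many carry small nucleolar RNA (snoRNA) genes in their introns, which guide the chemical modification of rRNA. The median gene span was 3328 bases with 5 exons in the leading transcript, against 22974 bases and 9 exons for other detected genes. A snoRNA gene lay inside 29 of the 78 detected members (37.2%), against 164 of 8804 others (1.86%). Of 56 such snoRNA genes, 18 had at least 1 expected count in both libraries, and together they had 25200 and 20663 counts.

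Most of those counts were of 3 genes. Gm26448 inside Rpsa (chromosome 9, 120129351 to 120129553) had 16919 and 12823 counts. Snord15b and Snord15a inside Rps3 had 3899 and 3808, and 1984 and 1704 counts. Several others, such as Snora64 inside Rps2 with 218 and 283 counts, were listed at 0 TPM in both libraries despite their counts, and Snora52 inside Rplp2, with 927 and 1000 counts, was at 8010 TPM in replicate 1 and 0 in replicate 2. TPM of these short genes is therefore not used, and reads of a host intron and of a snoRNA in it cannot be told apart here.

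Processed pseudogenes, copies of mRNAs inserted back into the genome, are numerous for this family. The tables list 248 pseudogenes named for 55 of the members, and 118 of them had at least 1 expected count in both libraries. They took 70542 and 107049 counts, or 1.87% and 2.55% of the counts of members and pseudogenes together. Copies with other kinds of symbol were not counted. Nor were the 6 copies that the annotation types as protein-coding, such as Rps12-ps3 at 84.6 and 131 TPM and Rpl10-ps3 at 59.3 and 91.0 TPM.

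A few copies took most of these counts. Rpl27-ps3 (chromosome 18, 6332632 to 6333042) had 16440 and 23153 counts, and with the other copies of Rpl27 36.1% and 45.5% of the Rpl27 total. Rpl31-ps8 had 6117 and 8904 counts, and copies of Rpl31 took 16.5% and 21.7% of the Rpl31 total. Rps6-ps4 had 6729 and 10306 counts, and copies of Rps6 took 10.1% and 13.9%. Rpl19-ps11 had 4714 and 6999 counts, with 5.71% and 7.67% in copies of Rpl19, and Rpl3-ps1 had 3797 and 6511 counts, with 3.45% and 4.76% in copies of Rpl3. Among the copies counted, those of Rpl27, Rpl31 and Rps6 took the largest shares of any member's total. The levels of these genes are uncertain to that extent, since reads of near-identical copies are divided by estimation. Rps27rt, not counted among the copies, had 2861 and 2866 counts beside 3061 and 2676 for Rps27.

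The pseudogenes were more often higher in replicate 2 than their parents. Of 97 with enough counts, 38 (39.2%) were higher by a ratio of 1.5 or more and 4 lower, with a median log2 ratio of 0.49. Among 745 other processed pseudogenes 27.8% were higher, with a median of 0.17, and among all genes tested 12.7%. Of the parents, Rpl27 had a log2 ratio of -0.17, Rpl31 -0.04, Rps6 -0.01, Rpl19 0.01 and Rpl3 0.20. In each of these 5 genes the pseudogene share was larger in replicate 2, and the part of read assignment in this was not tested.

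A few members also depended on the annotation release used for counting. Rpl31 was at 130 TPM in release M2, 289 TPM in M3 and 517 TPM in M4, the one used here. Rpl15 was at 272 TPM in M2, 508 TPM in M3 and 512 TPM in M4. They were the 2 members that differed by 1.2 times or more between M2 and M4, and Rpl31 was the 1 that did so between M3 and M4.

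Other genes of translation, from lists of fixed membership, gave the setting. All 10 genes listed as elongation factors and other TOP mRNAs were detected, with a median log2 ratio of -0.05. None was called, against 5.16% of 8803 other detected nuclear protein-coding genes. The start letters of these 10 genes are not given here. Eef1a1, which delivers aminoacyl-tRNA, was at 3284 and 3969 TPM, above every ribosomal protein gene in both libraries. Eef2, the translocase that acts at the P stalk, was at 728 and 1030 TPM with a log2 ratio of 0.53. Naca and Btf3, the nascent chain complex at the tunnel exit, were at 254 and 226 TPM and at 265 and 256 TPM.

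The 29 initiation factors were all detected at medians of 71.9 and 63.4 TPM, below the medians of the 77 high members, 699 and 715 TPM. Their median log2 ratio was -0.12, with 7 higher, 22 lower and none called. For 8803 other detected nuclear protein-coding genes the median was -0.03, 54.5% lay lower and 5.16% were called, so 0 of 29 is near the background. Eif4a1, the helicase, led at 499 and 387 TPM. Of 17 regulators of TOP mRNAs, 16 were detected. Larp1, which binds the cap and the tract, was at 25.5 and 22.5 TPM and Mtor at 5.71 and 5.18 TPM. Called among them were Eif4ebp1, the inhibitor of the cap-binding protein, at 50.6 and 97.9 TPM, and Eif4ebp3, at 0.42 and 0.95 TPM, both higher in replicate 2. That is 2 of 17, against 12.7% of all genes tested called higher and 5.16% of the 8803 other detected genes called in either direction. Eif4ebp3 was below 1 TPM in both libraries.

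The ribosome biogenesis genes lay lower in replicate 2 than in replicate 1. Of 29 genes, 28 were lower and 1 higher, with a median log2 ratio of -0.36, against the 54.5% and -0.03 of the other detected genes. One of them was called, Dkc1, the pseudouridine synthase of H/ACA snoRNAs, against 1.44% called lower among those other genes. The call of Dkc1 rests on 8441 and 5926 counts, a log2 ratio of -0.61, and its levels of 38.1 and 28.2 TPM differed by less. Tsr1 and Gnl3 fell just short of a call at -0.58 and -0.57. Npm1 was at 980 and 908 TPM, Nop56 at 162 and 130 TPM and Ncl, nucleolin, at 122 and 91.1 TPM. The 6 chaperones of single ribosomal proteins had a median of -0.33, with 5 lower and 1, Pdcd2l at 0.29, higher in replicate 2. Grwd1, the chaperone of Rpl3, at 31.0 and 19.9 TPM, and Tsr2, that of Rps26, at 7.92 and 4.05 TPM, were called lower. Over the same libraries the ribosomal proteins themselves had a median of 0.02.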

How the data were processed

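Total RNA-seq of 2 CH12.LX libraries was used as deposited. The deposited expected counts and TPM, per the file headers, are estimates per gene and transcript on mm10. For the aligner, the quantifier and the use of strand in counting, nothing is given in the sources used here. Deposited percent values give a transcript's share of its gene's TPM, per the file headers. Other deposited columns hold credibility bounds of TPM, which are not reported, and posterior mean TPM, which served as an alternative. Rows with numeric identifiers or spike-in names were left out, leaving 43346 genes, 42462 of which matched GENCODE M21 (GRCm38), the source of symbols, types and coordinates. Expected counts were rounded for ratios and scaled with TMM in edgeR 4.0.16 (R 4.3.3) over genes with at least 10 counts. DESeq2 1.42.0 gave alternative size factors only. The code for ratios and intervals was checked on simulated counts, which says nothing of the data themselves. Other steps used Python 3.11.15, pandas 2.3.3, scipy 1.17.1, matplotlib 3.10.9 and, for alignments of coding sequence, Biopython 1.88.

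The members, the lists of other genes and the thresholds were chosen with earlier results of these data known. Values per library are given for the 10 highest and 10 lowest members, for members with set roles or paralogs, for the 5 largest log2 ratios per direction and the 5 largest shifts of rank, for the 5 parents with most pseudogene counts, for transcripts at 10% or more, and for up to 4 high and 2 low genes of each list. Some genes the rule takes are not reported here, in the text or by name in the plots. The genes at 100 TPM or more, the GENCODE starts, the snoRNA hosts and the other processed pseudogenes were added as comparisons after the values were seen. No p-value was computed, since each side of the comparison has 1 library. Riok2 had no match and was not analysed here. Protein sequences were not used here.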

Additional observations from a re-analysis of the deposited data

How the results depend on the processing

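The number of members detected was 78 with annotation releases M2 and M3, posterior mean TPM, either library alone and TPM rescaled to protein-coding genes, and 77 at a threshold of 10 TPM. The median TPM over all 80 members was 684, or 2811 with TPM rescaled to protein-coding genes, and ran from 662 to 710 when 1 library was left out. The share of protein-coding TPM was 25.5%, or 10.5% with expected counts and 26.2% with the pseudogenes added, and ran from 25.1% to 25.9% when 1 library was left out. The ratio of the 90th to the 10th percentile over detected members was 3.11 from the mean TPM, or 3.47 with M2, and ran from 3.04 to 3.37 when 1 library was left out. Members called between libraries were 1, or 0 at a ratio of 2 and 3 with no filter on low counts, where Rpl3l and Rpl10l enter with 0 counts in replicate 2. The median log2 ratio was 0.02, or -0.07 with library totals alone. Of single members, the mean TPM moved by more than the SD between libraries for 25 of 80 with M2, 25 with M3 and 6 with posterior mean TPM. The median ratio of mean TPM was 0.974 for M4 over M2 and 0.973 for M4 over M3. A shift of that size passes a small SD, as for Rps4x at 739 ± 3.69 TPM in M4 and 760 TPM in M2. By 1.2 times or more, 2 members differed between M4 and M2 and 1 between M4 and M3. The share of members with a TOP tract at the start was 21.7% with RefSeq starts and 12.8% with GENCODE starts, an alternative chosen after seeing the data. No paired analysis was possible because both libraries belong to 1 group. Depth limits Rpl39l, Rpl3l and Rpl10l, which have at most 105 counts.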
